A study of Mus musculus with 2 samples.

Results

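The genes described here remove ammonia in the liver. They are 10 genes taken by name from the 19318 genes with a named probe on the array: 5 of the urea cycle (Cps1, Otc, Ass1, Asl and Arg1) and 5 of glutamine synthesis and its supporting transport and ornithine chemistry (Glul, Rhbg, Oat, Slc1a2 and Slc1a4). They are read by 11 of the 20686 named probes analysed, and Slc1a2 is the member with 2. The names were chosen by pathway and by liver zone, not by a measured value in the rule itself, although earlier results of these data were known when they were proposed.

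RNA from whole liver of 24-week-old mice was hybridised to 2 single-colour arrays, 1 per genotype. The control carried Twist2-Cre alone. The other genotype, here CKO, carried Twist2-Cre together with a floxed A20 gene (A20fl/fl), so that both share the Cre. Twist2-Cre recombines in mesenchymal lineages and A20, the product of Tnfaip3, restrains NF-kB signalling, so hepatocytes, in which most of the members work, are outside the lineage the Cre is known for. How many animals each RNA came from is not stated in the labels. The question put to these genes is whether the means of ammonia removal in the liver differ between the genotypes. With 1 array per genotype there is no spread over animals, no test and no p-value, and every statement that a gene was higher or lower describes these 2 arrays. As guides to size only, the ratios from different probes of 1 gene differed by 0.12 (SD of log2, 1140 genes), and repeated positive control spots varied by 0.17 to 0.19 (SD of log2, control array) and 0.14 to 0.15 (CKO array); neither measures variation between animals.

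Liver handles ammonia in sequence along the lobule. Hepatocytes near the portal vein take up most of it into the urea cycle, in which Cps1 and Otc work in mitochondria and Ass1, Asl and Arg1 in the cytosol. A thin rim of hepatocytes around the central vein catches what escapes, using glutamine synthetase (Glul) to join ammonia to glutamate. The same rim carries the ammonium transporter Rhbg and the glutamate transporter Slc1a2, and it is rich in ornithine aminotransferase (Oat), which makes a precursor of glutamate out of ornithine. Slc1a4 carries small neutral amino acids. Expression of the pericentral genes is known to depend on Wnt/beta-catenin signals that come from endothelial cells of the central vein.

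The promoters of 6 members, 2 of the urea cycle (Otc and Ass1) and 4 of the glutamine group (Glul, Oat, Slc1a2 and Slc1a4), are in the RefSeq table of GRCm38.p6. Those of 3 glutamine genes are shown, a choice made on the measured values. They are the 3 of these 4 with the larger reported ratios of CKO over control, and Slc1a4, also higher, is left out. Each is the 250 bases before the gene start, 5′ to 3′, and capitals mark matches to the motifs searched on both strands: the TCF/LEF cores CTTTGA and CTTTGT, the C/EBP pattern TTGCNNAA and the HNF4 cores CAAAGT and CAAAGTCCA. The positions are chr1:153899679-153899928 (plus strand) for Glul, chr7:132576399-132576648 (minus strand) for Oat and chr2:102706188-102706437 (plus strand) for Slc1a2.
Glul: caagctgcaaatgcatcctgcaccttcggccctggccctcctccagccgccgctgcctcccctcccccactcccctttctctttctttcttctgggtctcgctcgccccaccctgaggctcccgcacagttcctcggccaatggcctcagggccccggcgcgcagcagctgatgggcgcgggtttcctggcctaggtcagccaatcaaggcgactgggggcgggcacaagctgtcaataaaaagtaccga
Oat: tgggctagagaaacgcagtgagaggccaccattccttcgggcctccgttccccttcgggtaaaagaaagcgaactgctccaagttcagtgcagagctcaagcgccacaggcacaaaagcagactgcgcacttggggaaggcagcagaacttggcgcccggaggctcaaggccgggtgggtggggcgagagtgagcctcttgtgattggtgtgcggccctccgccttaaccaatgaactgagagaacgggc
Slc1a2: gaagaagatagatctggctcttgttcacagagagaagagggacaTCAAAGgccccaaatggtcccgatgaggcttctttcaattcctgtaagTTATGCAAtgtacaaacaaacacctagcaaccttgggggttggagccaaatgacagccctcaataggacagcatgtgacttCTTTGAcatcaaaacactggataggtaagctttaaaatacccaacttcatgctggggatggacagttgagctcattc
Slc1a2 held 2 matches to CTTTGA, beginning 206 and 77 bases before the start, the former on the reverse strand, and 1 match to TTGCNNAA on the reverse strand, beginning 158 bases before the start. The windows of Glul, Oat, Slc1a4, Otc and Ass1 held 0 matches to any of the motifs. Among 32851 promoters of the same length, 13.8% held CTTTGA, 16.5% CTTTGT, 9.56% TTGCNNAA, 12.6% CAAAGT and 0.384% CAAAGTCCA. CAAAGT lies within CAAAGTCCA, and on the opposite strand its ACTTTG can share bases with both TCF/LEF cores. A match describes letters only, and these windows leave out enhancers and first introns.

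All 5 glutamine genes were higher in the CKO liver, under every scaling tried. Of the 5 urea cycle genes, Ass1, Asl and Arg1 were lower under every scaling tried and Cps1 and Otc near equal; the setting that takes the signal around each spot as background turned the sign of Rhbg, Asl and Cps1. The median log2 ratio of CKO over control was 0.58 for the glutamine genes and -0.22 for the urea cycle genes, a difference of 0.80, while the median of the 14143 genes above background on both arrays was -0.02. These ratios come from background-corrected intensities to which an offset of 50 was added, which shrinks the differences of dim probes, so the intensities of the deposited value table are given first for each gene. Of those 14143 genes 42.2% had a ratio above 0 and 57.7% a ratio below it. Rhbg was the 1 member past 2-fold, against 0.636% of all genes past that mark on the higher side; 0 members were 2-fold lower, against 0.0778% of all genes. All 10 members were above background on both arrays.

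**Figure D1:**
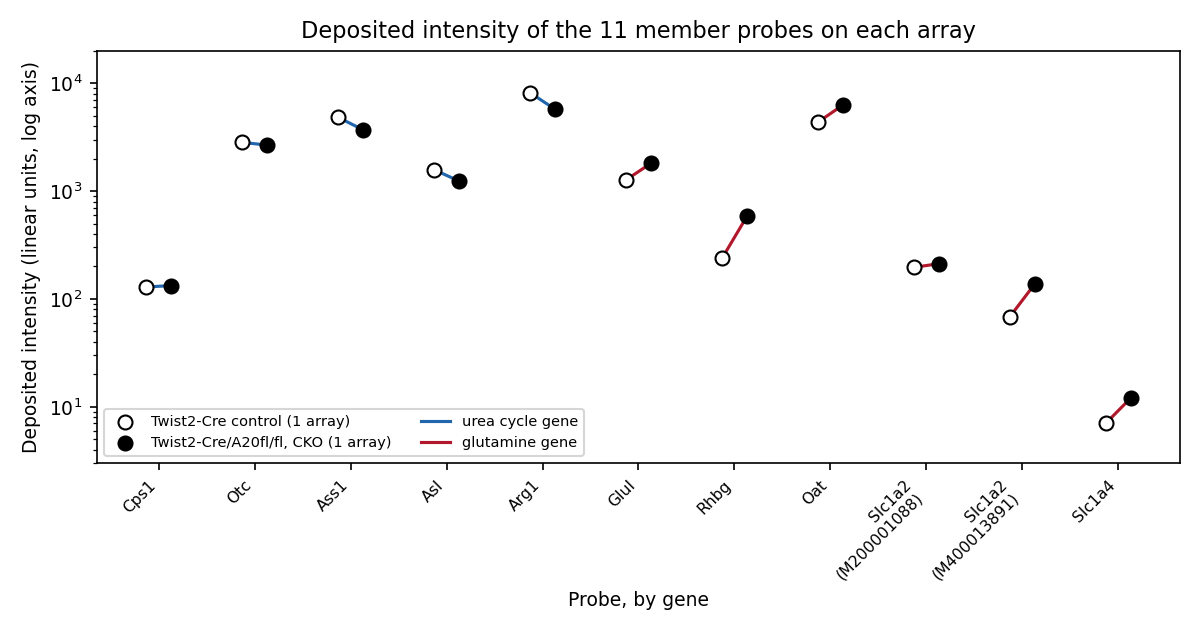
Deposited intensity (linear units on a log axis) of the 11 member probes on the control array (open points) and the CKO array (filled points), joined by a blue line for urea cycle genes and a red line for glutamine genes. Every red line goes up from control to CKO, most steeply for Rhbg (237 to 581), whereas the lines of Ass1, Asl and Arg1 go down; heights of different probes are not comparable.

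Of the glutamine genes, Glul, which makes glutamine from glutamate and ammonia, had a deposited intensity of 1268 in control and 1810 in CKO liver, 1.43-fold higher. Its log2 ratio on the offset scale was 0.58, or 1.49-fold, and 1.73% of all genes had a larger one. Oat, which turns ornithine and 2-oxoglutarate into glutamate and a semialdehyde, stood at 4347 in control and 6263 in CKO liver. Its deposited values differed 1.44-fold and its log2 ratio was 0.63, with 1.48% of genes above it. These were both bright probes, and for them the offset and the deposited scale gave nearly the same ratio.

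Rhbg, the ammonium transporter of pericentral hepatocytes, differed most. Its deposited intensity was 237 in control and 581 in CKO liver, 2.45-fold higher, and its log2 ratio was 1.19, or 2.28-fold. It was the gene ranked 67 from the top among the 14143. The signal around its spot moved with it, from 301.4 to 780.9, and stood at 88.0% of the spot in control and 101% in CKO liver. When that local signal was used as background the ratio of Rhbg turned to -0.93.

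The 2 probes of Slc1a2, the glutamate transporter, differed in size of response. The brighter probe, M200001088, read 196 in control and 212 in CKO liver (log2 ratio 0.10). The dimmer one, M400013891, read 68 and 137 (log2 ratio 0.70), 2.01-fold higher in the deposited values. Both were higher in the CKO liver, their mean ratio was 0.40, and the gap between them exceeds the usual spread between probes of 1 gene (0.12). The parts of the transcript read by these probes are not known here.

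Slc1a4, the neutral amino acid carrier, was close to background. Its deposited intensity was 7 in control and 12 in CKO liver, 1.71-fold higher, while its offset-scale ratio was only 0.12. Its spots read 75.7 and 84.0, against thresholds for detection of 69.5 and 72.2. The size of its ratio therefore depended on the scale, and its sign did not differ between the scales tried.

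In the urea cycle, the mitochondrial members were near equal. Cps1, which makes carbamoyl phosphate from ammonia and is rate-limiting for the cycle, read 129 in control and 133 in CKO liver (log2 ratio 0.03). Its only probe was by far the dimmest of the urea cycle probes, and how well it reads the transcript is not known here. Otc, which joins carbamoyl phosphate to ornithine, read 2827 and 2667 (log2 ratio 0.04). The sign of Otc depended on the scaling: it was 0.04 after quantile normalization, -0.03 after median scaling and -0.08 in the deposited values.

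The cytosolic members were lower in the CKO liver. Ass1, which makes argininosuccinate, read 4818 in control and 3695 in CKO liver, with a log2 ratio of -0.22 and 1.30-fold lower deposited intensity. Asl, which splits argininosuccinate into arginine and fumarate, read 1577 and 1237, with a log2 ratio of -0.27 and 1.27-fold lower deposited intensity. Arg1, which releases urea and returns ornithine, differed most of the 5. It read 8159 and 5738, 1.42-fold lower, with a log2 ratio of -0.39, and 1.41% of all genes had a lower ratio. For Ass1 and Asl the share of genes with a lower ratio was 6.37% and 3.92%. No urea cycle gene reached 1.5-fold on either scale. The ratios of Ass1, Asl and Arg1 exceeded the spread between probes of 1 gene (0.12), which was pooled over 1140 genes. Repeated positive control spots varied more, by 0.17 to 0.19 on the control array and 0.14 to 0.15 on the CKO array. A ratio carries the variation of both arrays, so Ass1 (-0.22) and Asl (-0.27) in particular were not clearly beyond it.

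**Figure D2:**
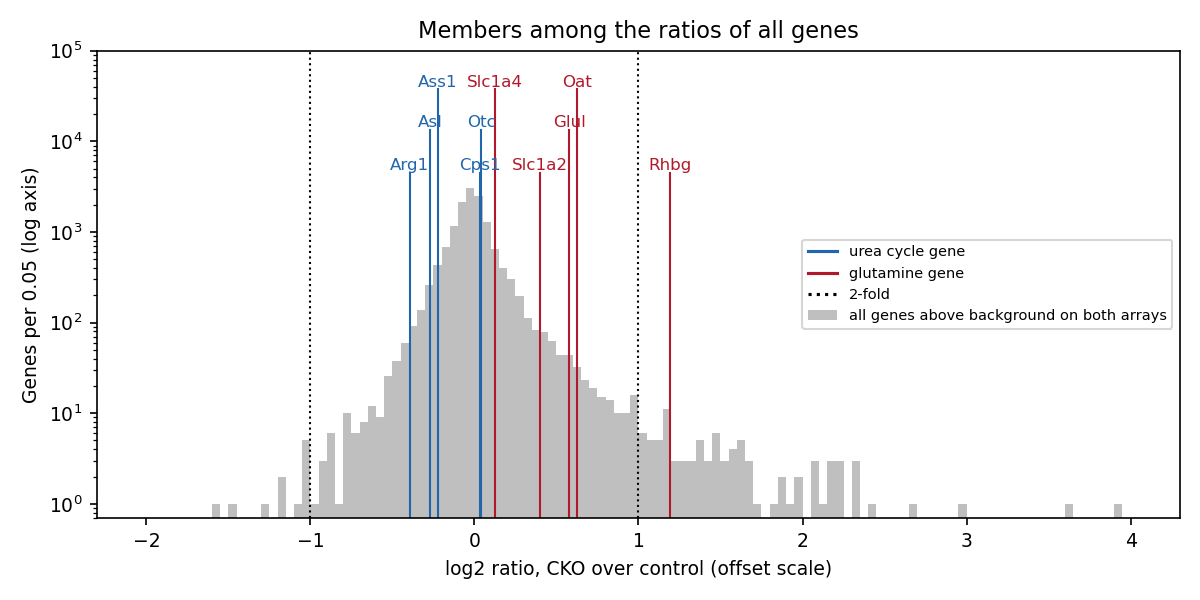
Histogram of the log2 ratio of CKO over control for the 14143 genes above background on both arrays (grey, counts on a log axis), with the 5 urea cycle genes as blue lines, the 5 glutamine genes as red lines and 2-fold as dotted lines. Arg1 (-0.39), Asl (-0.27) and Ass1 (-0.22) lie on the left shoulder, Cps1 and Otc at the centre, and Glul (0.58), Oat (0.63) and Rhbg (1.19) on the right, where the histogram is sparse.

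The direction of 9 of the 10 members was the same on the offset scale and in the deposited values, Otc being the exception. In the deposited values the median log2 ratio was 0.56 for the glutamine genes and -0.35 for the urea cycle genes. Of 14638 genes listed on both arrays there, 37% had a ratio above 0 and 52.8% one below it, 3.83% were past 2-fold on the higher side and 1.08% on the lower, and Rhbg was again the only member past 2-fold.

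The signal around the spots differed between the arrays for several members. For Otc it was 2968.5 in control and 1431.5 in CKO liver, or 88.4% and 43.3% of the spot, although the spots themselves read 3356.8 and 3302.7. For Asl it was 1994.2 and 1257.2, which on the control array is 105% of its own spot. Against this local signal the ratio of Otc was 1.51, that of Asl 2.26, that of Ass1 -1.04 and that of Arg1 -0.12. The glutamine genes Glul (0.74) and Oat (0.55) kept their direction and much of their size there, Slc1a2 was at 0.01 and Slc1a4 at 0.04. The local column was not used as background for the reported ratios, because over all gene spots it followed the log2 signal of the spot itself (r = 0.988 for the control array, 0.972 for the CKO array).

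**Figure D3:**
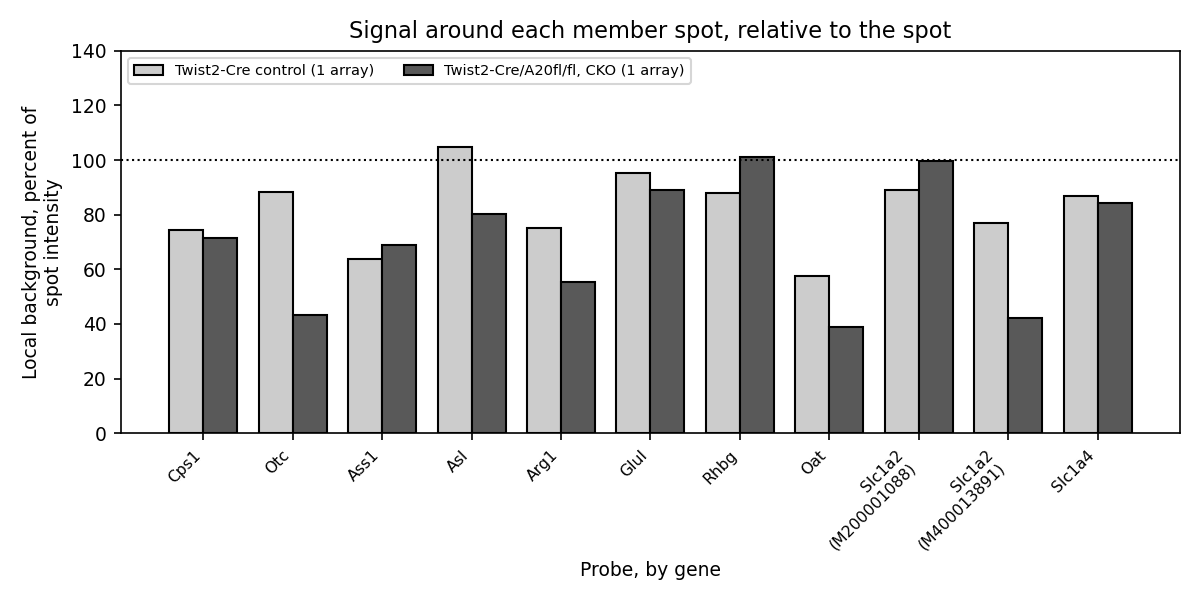
Local background as a percent of the spot intensity for the 11 member probes on the control array (light bars) and the CKO array (dark bars), with 100% dotted. The share differs between the arrays most for Otc (88.4% and 43.3%), and it passes 100% for Asl on the control array and for Rhbg on the CKO array.

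**Figure D4:**
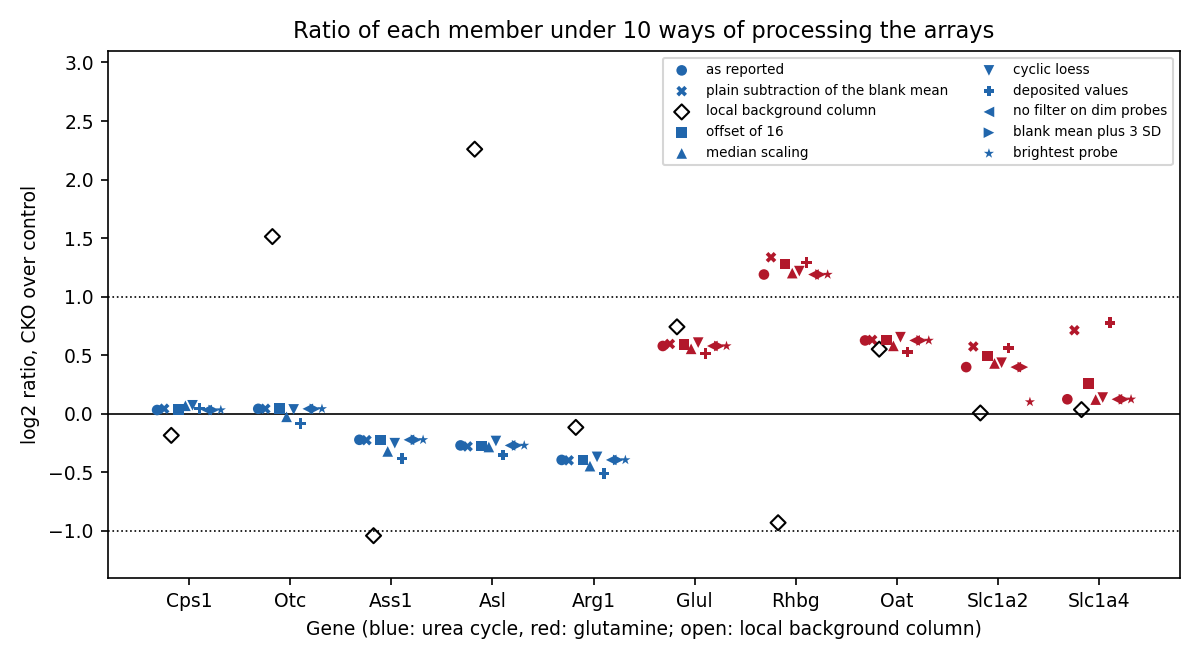
Log2 ratio of CKO over control of each member as reported and under 9 alternatives, in blue for urea cycle and red for glutamine genes, with the setting that uses the local background column as open diamonds and 2-fold dotted. Outside the open diamonds, Ass1, Asl and Arg1 stay below 0 and all 5 glutamine genes above it, and the diamonds stand farthest from the other points for Asl (2.26), Rhbg (-0.93) and Otc (1.51).

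The enzymes and carriers that feed the urea cycle lay on both sides. Of 12 such genes, 10 were above background on both arrays, 4 higher and 6 lower, with a median of -0.08 and 0 past 2-fold. The mitochondrial aspartate-glutamate carrier Slc25a13, which supplies aspartate to Ass1, read 2111 in control and 1502 in CKO liver (log2 ratio -0.40). Nags, whose product activates Cps1, read 567 and 431 (-0.31). The Cps1-regulating deacylase Sirt5 was higher (0.21; 52 and 67). The glycerol and urea channel Aqp9 had a mean ratio of 0.28 over 2 probes that disagreed, 0.58 for the brighter (245 and 379) and -0.02 for one near background (8 and 7). The ornithine carrier Slc25a15 was at 0.14 (109 and 125). Against the local background column 5 of the 10 were higher and 5 lower (median 0.18), and Slc25a13 turned to 2.29.

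Genes that carry or convert glutamine, ornithine and proline lay on both sides of 0. Of 21, 17 had a named probe and 12 were above background on both arrays, 5 higher and 7 lower, with a median of -0.06. The glutamine transporter Slc38a3, which is also pericentral, read 946 in control and 1241 in CKO liver (log2 ratio 0.45). Its relative Slc38a4 had a ratio of 0.21 (1123 and 1250), while the large neutral amino acid transporter Slc7a5 was at -0.20 (54 and 42) and proline dehydrogenase Prodh at -0.18 (1254 and 1040). Rhag, a relative of Rhbg, was below background on both arrays, and Rhcg was above it on the CKO array only. Genes that use arginine for nitric oxide and creatine had 2 higher and 4 lower of 6, with a median of -0.09. Among them Nos3 was at -0.19 (22 and 14), Gatm at 0.16 (35 and 45), Ddah2 at -0.13 (47 and 39) and Gamt at -0.09 (1063 and 943). The inducible nitric oxide synthase Nos2, which competes with Arg1 for arginine, was below background on both arrays.

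Other genes of the lobule's zones also lay on both sides of 0. From a list of pericentral genes linked to Wnt/beta-catenin, 16 were measured on both arrays, 10 higher and 6 lower. Their median was 0.05 and 0 were past 2-fold. This list also holds Ctnnb1 and Apc (-0.08; 24 and 21), which are parts of the pathway and not pericentral genes. In the deposited values 8 of 17 genes of the list were higher and 8 lower. The largest ratios were those of beta-catenin itself, Ctnnb1 (0.29; 238 and 297), Lhpp (0.29; 211 and 264), the transporter Slc13a3 (0.25; 44 and 61) and the Wnt target Sp5 (0.23; 13 and 23). Of the 6 lower genes, Rgn (-0.22; 14750 and 11646) and the Wnt target Nkd1 (-0.16; 84 and 70) differed most. The Wnt target Axin2 was above background on the control array only. The abundant pericentral cytochromes Cyp2e1 (31102 and 29679, log2 ratio 0.07) and Cyp1a2 (3979 and 3952, log2 ratio 0.14) were near equal, as was the Wnt target Lgr5 at 0.01. All 4 Wnt ligands, enhancers and secretion factors of the central vein measured on both arrays were slightly lower, as were 57.7% of all genes. They were Wnt9b (-0.13, 24 and 18), Rspo3 (-0.06, 53 and 48), Wls (-0.04, 34 and 32) and Wnt2 (-0.02, 14 and 13), all dim. Wnt2 was at 0.00 with cyclic loess and at 0.15 against the local background column. Rspo1 was above background on the control array only, and Lgr4 on neither. Of 12 periportal genes outside the urea cycle, 4 were higher and 8 lower, with a median of -0.02. This split depended on the processing, with 7 higher and 5 lower (median 0.02) with cyclic loess and 8 higher and 4 lower (median 0.19) against the local background column. Pck1 (0.57; 4584 and 6276) and Ctsc (0.55; 235 and 356) were higher, and G6pc (-0.42; 1519 and 1088) and Uroc1 (-0.37; 887 and 644) lower.

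**Figure D5:**
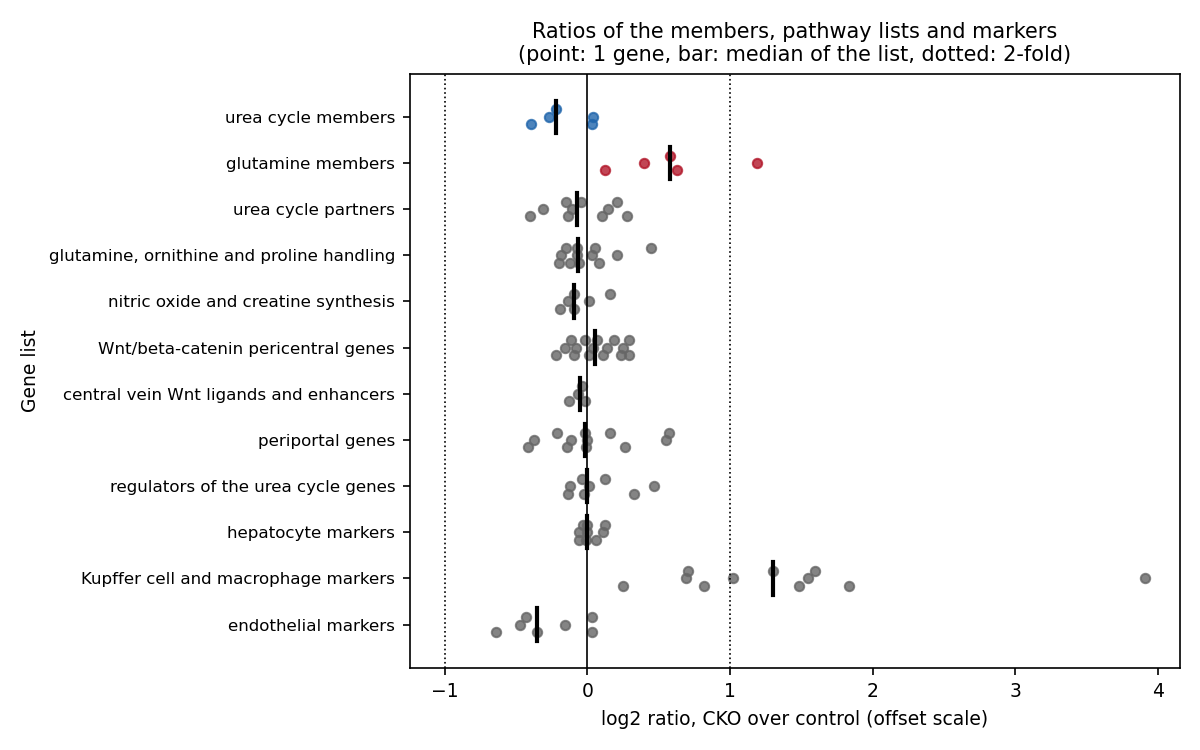
Log2 ratio of CKO over control for each gene above background on both arrays (points), by list, with the list's median as a black bar and 2-fold dotted. The glutamine members (median 0.58) sit to the right of the list of Wnt/beta-catenin pericentral genes (0.05), which also holds Ctnnb1 and Apc. The urea cycle members (-0.22) sit to the left of the periportal genes (-0.02). The Kupffer cell and macrophage markers (1.30) are the list farthest to the right.

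Transcription factors and receptors known to act on urea cycle genes lay on both sides of 0, with 4 of 8 higher, 4 lower and a median of 0.00. The median of this list was 0.18 with plain subtraction of the blank mean, and against the local background column 7 were higher and 1 lower (median 0.12). Cebpb, which also responds to inflammation, was at 0.47 (726 and 975) and Hnf4a at 0.33 (863 and 1051). Foxo1 was at -0.13 (87 and 74) and the glucocorticoid receptor Nr3c1 at -0.12 (10 and 6), and the sign of both turned when the local signal was the background. The glucagon receptor Gcgr was near equal, at 2143 and 2083.

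The labelled tissue was checked against its markers. All 9 measured hepatocyte genes were above background on both arrays, with a median ratio of 0.00 and a summed deposited intensity of 218520 in control and 202630 in CKO liver (0.927 of the control). That median was -0.11 in the deposited values and 0.05 with cyclic loess. With median scaling it was -0.05, with 2 genes higher and 7 lower. Quantile normalization gives spots of equal rank on the 2 arrays the same value. The ratios of exactly 0 of Apoa2 (41107 and 37838) and Fgb (21484 and 19913) arise in that way, so the 0.00 does not measure equal hepatocyte RNA. Of 4 kidney and gut markers, Umod was below background on both arrays, while Slc12a1 (3 and 3), Vil1 (50 and 35) and Fabp2 (730 and 781) were above it on both. In bulk tissue, fewer cells of a type and less RNA per cell cannot be told apart. All 11 measured Kupffer cell and macrophage markers above background on both arrays were higher, 7 past 2-fold, with a median of 1.30, and their list summed to 2735 in control and 9144 in CKO liver. Adgre1 of that list was above background on the CKO array only. Macrophages can express Arg1 and Glul. Of 5 markers of alternatively activated macrophages, 3 were measured on both arrays, all higher, with ratios of 0.11 to 0.14. Chil3 was above background on the CKO array only and Retnla on neither. That list summed to 108 in control and 156 in CKO liver, but the CKO sum includes Chil3 (26) and Retnla (2), which have no control value. Each sum in this paragraph covers every gene of its list with a deposited value on that array. Of 8 endothelial markers, 5 of the 7 measured were lower, with a median of -0.35 and sums of 1284 and 854, and Cdh5 was below background on both arrays. Of the other cell types, T and NK cell markers were higher in 4 of 4 genes measured on both arrays (median 0.36). Cd3e was below background on both, and Nkg7 was above it on the CKO array only. That list summed to 36 in control and 152 in CKO liver, the latter including Nkg7 (26), which has no control value. Neutrophil markers had a median of 0.43 over 4 genes, from 0.00 for Ly6g to 0.67 for S100a9. Their list summed to 412 in control and 486 in CKO liver, the latter including Mpo (3), which was above background on the CKO array only. Ly6g (356 and 345) made up most of both sums, so they say little of the other neutrophil genes. All 5 measured cholangiocyte markers were lower (median -0.18, sums of 140 and 98). Of 8 stellate cell and fibroblast markers, which belong to the lineage of the Cre, 6 were higher and 2 lower (median 0.06). Col1a2 was at 0.62, Col3a1 at 0.57 and Dcn at -0.52. The 2 probes of Col3a1 disagreed, with 1.11 for the brighter (178 and 419) and 0.04 for one near background (5 and 6). Dcn (1387 and 918) made up most of the list's sums of 1615.5 and 1330.5, which therefore do not show the direction of the other genes. B cell markers (median 0.02 over 3 genes, sums of 57 and 68) and the 1 erythroid marker measured, Alas2 (0.10; 30 and 36), were near equal. The part of these cell types in the ratios of the members was not tested.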

How the data were processed

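Liver RNA was turned into amino allyl aRNA and coupled to Cy5, per the labels' protocols. The scanner files give an intensity per spot and 1 for its surroundings, both medians, from 3 gains joined by least-squares lines, per the file headers. The deposited value table holds intensity on a linear scale, not centred on genes, with a median of 25 on both arrays. How the authors made it is not stated; tested on the values, it is the spot minus the trimmed mean of the blank spots, times 0.859 (control) or 0.825 (CKO), to within 0.514. It lists 76.3% and 76.6% of 23473 gene probes. Each column holds 1 sample's levels, so its direction is not in question.

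Spot intensities were corrected with normexp against the mean of 384 blank spots (67.2 control, 69.3 CKO) with an offset of 50, control spots and 4 flagged spots were left out, and arrays were quantile-normalized on the log2 scale (limma 3.58.1, R 4.3.3; tested on simulated data). A gene's value was the mean of its probes. A gene was above background when any probe exceeded the blank mean plus 2 SD. Above it were 73.8% and 73.6% of gene spots; the number of arrays limits the precision. Differences past 2-fold were counted, with no test. The ratio of a list is its median.

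Probes were named from the platform annotation, which gives 20690 probes 1 symbol. Besides the 10 members, the text names up to 4 genes of each pathway list with the largest absolute ratios; others named from these lists and the markers were chosen after their values were seen. Members and lists were chosen with earlier results of these data known. Alternatives changed the background correction, offset, normalization, filter on dim probes and probe rule, and used the deposited values.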

Additional observations from a re-analysis of the deposited data

How the results depend on the processing

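The difference between the glutamine and urea cycle medians (0.80 as reported) lay between 0.80 and 0.91 under 8 of the 9 alternatives. Against the local background column it was 0.15, and the median ratio of the glutamine genes was 0.036. In that setting Rhbg was at -0.93, 2 members were past 2-fold higher and 1 past 2-fold lower, and 7 of 10 members stayed on the reported side of 0. Of the genes named from the pathway lists, besides Foxo1, Nr3c1 and Wnt2, Gamt (2.07), Slc25a13 (2.29), Uroc1 (0.20), Lhpp (-0.63), Ctsc (-0.08) and Sirt5 (-0.0033) also changed sign there. Kupffer cell and macrophage markers had 9 higher and 2 lower in that setting (median 0.75). T and NK cell and neutrophil markers each had 3 higher and 1 lower. Stellate cell and fibroblast markers had 4 and 4, and endothelial markers 3 and 4. All 5 cholangiocyte markers stayed lower, while Alas2 turned to -0.11 and Ly6g to -0.50. The urea cycle median was -0.35 in the deposited values. Slc1a2 was at 0.10 with the brightest probe only. Slc1a4 was at 0.26 with an offset of 16, 0.71 with plain subtraction and 0.78 in the deposited values. The counts of all genes past 2-fold, 90 higher and 11 lower as reported, were 431 and 83 with plain subtraction of the blank mean, 432 and 197 against the local background column, 181 and 19 with an offset of 16, and 560 and 158 in the deposited values. For these changes the cause was not tested, except that a smaller offset shrinks ratios less by construction. No paired analysis was possible because each genotype has 1 array. Arrays this few, and probes near background such as that of Slc1a4, limit what the ratios can show.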
